A study of Mus musculus with 12 samples.

Results

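The gene expression of the thymus was compared between mice of 3 months (3M) and mice of 6 weeks (6W), the step in which the organ begins to shrink. The comparison rests on 4 libraries, 3M replicates 1 and 2 and 6W replicates 1 and 2, out of 6 long-RNA libraries and 12 samples in the series. They were chosen by the age in their labels and by the class of RNA sequenced. All groups are wild type, untreated C57BL/6 mice, male according to the methods of the study, and both ages have 2 biological replicates. The sources do not say whether a replicate is 1 thymus or a pool. The 2 libraries of mice of 2 weeks (2W) entered the fit so that the spread between replicates was estimated over all 6 libraries, and their values are given as background.

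The thymus makes T cells. Immature thymocytes fill its cortex, pass through a CD4+CD8+ double positive (DP) stage and are selected by cortical and medullary epithelial cells. From young adulthood the organ involutes: thymocytes and epithelium are lost, and fat, B cells and plasma cells take up a larger share of the tissue. RNA of the whole organ mixes all of these cells, so that fewer cells of a type and less RNA per cell cannot be told apart.

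The authors deposited estimated counts and FPKM per transcript. The counts were summed by gene symbol and are given here as normalised counts per 1000000 (CPM), scaled by TMM. A library held 16789619 to 22553481 estimated counts at these ages, and 3 counts correspond to 0.132 to 0.180 CPM. The libraries carried the label's tissue: Rag1, which cuts the antigen receptor genes in DP thymocytes, stood at 8340 and 8087 CPM at 6W and at 7715 and 7542 CPM at 3M. The 3M libraries differed more from each other than the 6W libraries did. Across the 14805 genes tested, the Spearman correlation of log2 CPM was 0.9928 within the 6W pair and 0.9828 within the 3M pair, and 3M replicate 2 lay closer to either 6W library (0.9874 and 0.9882) than to 3M replicate 1. In 3M replicate 1, 173 genes stood more than 1 log2 unit above each of the other 3 libraries and 156 below. In 3M replicate 2 these numbers were 46 and 120, and in the 6W libraries 17 and 57 (replicate 1) and 22 and 81 (replicate 2). For this reason every gene past the threshold was assigned to 1 of 2 classes. It was called carried by both libraries where the difference within neither pair, in log2 CPM, exceeded the difference between the ages, and moved by 1 library otherwise.

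The study asked for a p under 0.05 and a change of more than 1 log2 unit, and its methods do not mention an adjustment of p. With unadjusted p, 312 genes passed this threshold in edgeR's quasi-likelihood test, which are 2.11% of the genes tested. Of these, 191 were higher at 3M (1.29%) and 121 lower (0.817%). Only 1 gene, Igf2bp3, had a Benjamini-Hochberg adjusted p under 0.05 (0.00675% of the genes tested), and the adjusted p of the other 311 was 0.142 to 0.349. DESeq2 gave 352 genes with an adjusted p under 0.05. Both libraries of each age carried 281 of the 312 genes, 165 higher and 116 lower. Of the other 31, 19 higher and 2 lower genes were moved by 3M replicate 1, 7 higher genes by 3M replicate 2, and 3 lower genes by a 6W library. Most of the changed genes were weakly expressed: the median of their mean level was 2.74 CPM, against 21.2 CPM over all genes tested, and 14 exceeded 100 CPM. Both 3M libraries lay above both 6W libraries for 3830 genes (25.9%) and below them for 3448 (23.3%). With 2 libraries at each age, an exact permutation test of a single gene cannot give a p under 0.333.

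**Figure D1:**
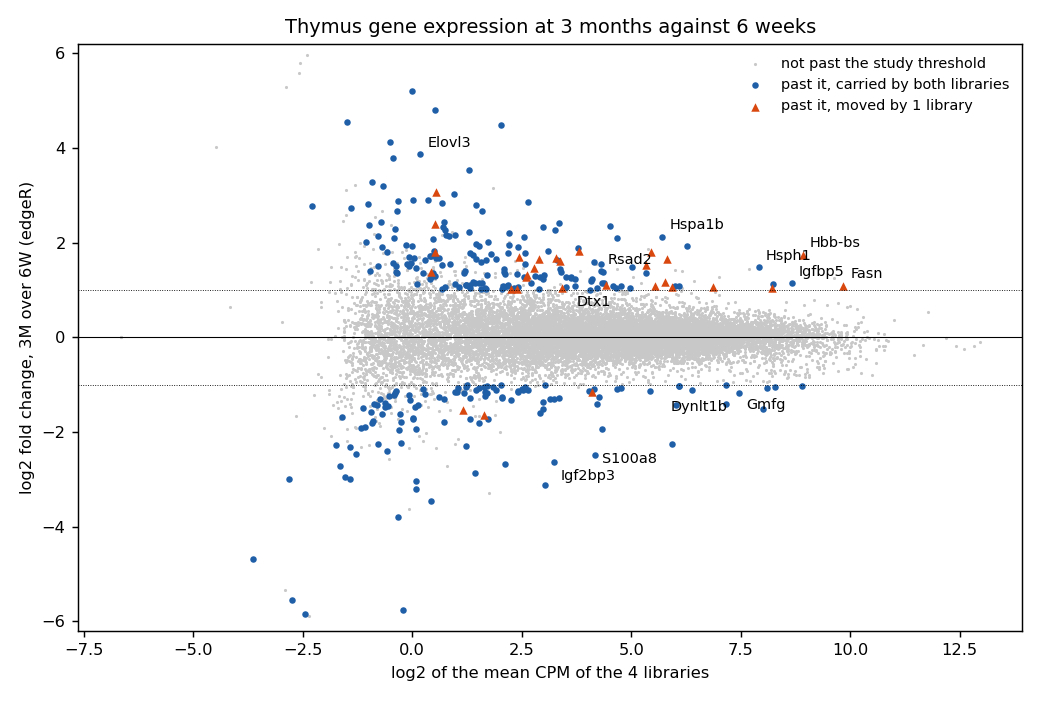
Log2 fold change of 3M over 6W (vertical axis, edgeR) against the log2 mean CPM of the 4 libraries (horizontal axis). Each point is a gene. Blue points passed the study threshold and were carried by both libraries, red triangles passed it and were moved by 1 library, and dotted lines mark a log2 fold change of 1 and -1. A further 17 genes lie outside the vertical range. Igf2bp3 stands apart at -2.63, and the genes moved by 1 library include the abundant Fasn and Hbb-bs.

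The gene with the smallest p was Igf2bp3, an RNA-binding protein of fetal and neonatal cells that is shut down as blood progenitors mature. It stood at 15.5 and 16.8 CPM at 6W and at 2.77 and 2.46 CPM at 3M. Both 3M libraries lay far below both 6W libraries, and the 2W libraries were higher still, at 80.0 and 101 CPM. It fell by 2.63 on the log2 scale (standard error 0.18, adjusted p = 0.0398 in edgeR's quasi-likelihood test). All counts at these ages came from 1 of its 2 transcripts in the table, which held 319 and 380 counts in the 6W libraries and 46 and 55 in the 3M libraries. The adjusted p was above 0.05 in 9 of 15 other settings. It was 0.106 with the 4 libraries fitted alone, 0.128 with a replicate block, 0.0701 with symbols kept apart by case and 0.155 without assembled transcripts. Leaving out 1 library gave 0.0553 (2W replicate 1), 0.105 and 0.210 (6W replicates 1 and 2) and 0.0965 and 0.0507 (3M replicates 1 and 2). The log2 fold change stayed between -2.70 and -2.57 in all settings run. Of the 12 tested genes on the list of fetal and imprinted growth genes, Igf2bp3 was the only one past the threshold, against 2.11% of all genes tested. The median log2 fold change of the list was -0.12.

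The genes with the smallest p among those that rose in both libraries included Dtx1, Shisa2 and Igfbp5. Dtx1, a ubiquitin ligase induced by Notch in early thymocytes, was at 15.8 and 16.8 CPM at 6W and at 33.8 and 34.0 CPM at 3M. Shisa2, an inhibitor of Wnt and FGF receptors, was at 23.9 and 21.2 CPM and then at 54.9 and 60.3 CPM. Igfbp5, a secreted protein that binds insulin-like growth factors, was at 276 and 227 CPM and then at 560.0 and 557 CPM. In each of the 3 genes the ages did not overlap, and the widest pair was that of Igfbp5 at 6W. Their log2 fold changes were 1.05 (standard error 0.11) for Dtx1, 1.35 (0.14) for Shisa2 and 1.15 (0.13) for Igfbp5. Dtx1 did not reach a change of 1 log2 unit without 3M replicate 2, by a narrow margin. It was the only called gene among the 13 of the early thymocyte list, whose median was 0.03, against 2.11% called among all genes tested. Notch targets on that list other than Dtx1 did not pass: Hes1 was at 3.20 and 3.22 CPM at 6W and at 5.17 and 4.43 CPM at 3M, and Nrarp at 5.67 and 4.77 CPM and then at 4.87 and 5.73 CPM.

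Further genes rose in both libraries. Ryr3, a calcium release channel of the endoplasmic reticulum, rose from 2.18 and 2.34 CPM to 7.76 and 9.14 CPM. Scn7a, a sodium channel expressed in glia and stroma, rose from 18.1 and 16.0 CPM to 53.4 and 41.8 CPM. Six4, a homeobox factor, rose from 9.79 and 10.8 CPM to 24.2 and 22.7 CPM. These 3 had log2 fold changes of 1.90 (standard error 0.24), 1.48 (0.21) and 1.19 (0.16). Six4 did not pass the threshold when assembled transcripts were left out (log2 fold change 0.94), and neither did Ryr3 (1.92). The assembled transcript of Ryr3 had no counts at 6W or 3M, so leaving it out did not change the Ryr3 counts compared. For Scn1a, a sodium channel of neurons that went from 6.79 and 4.99 CPM to 23.9 and 19.7 CPM, the direction itself depended on 1 assembled transcript. Its log2 fold change was 1.89 (0.25) with that transcript and -0.44 without assembled transcripts. Of the 8 sodium channel genes tested, a family chosen after the called genes were seen, 2 rose, against 1.29% of all genes tested. Of the 8, 4 had a positive log2 fold change, and the median was 0.10. The predicted gene Gm8113 rose from 10.1 and 10.2 CPM to 29.8 and 29.4 CPM.

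**Figure D2:**
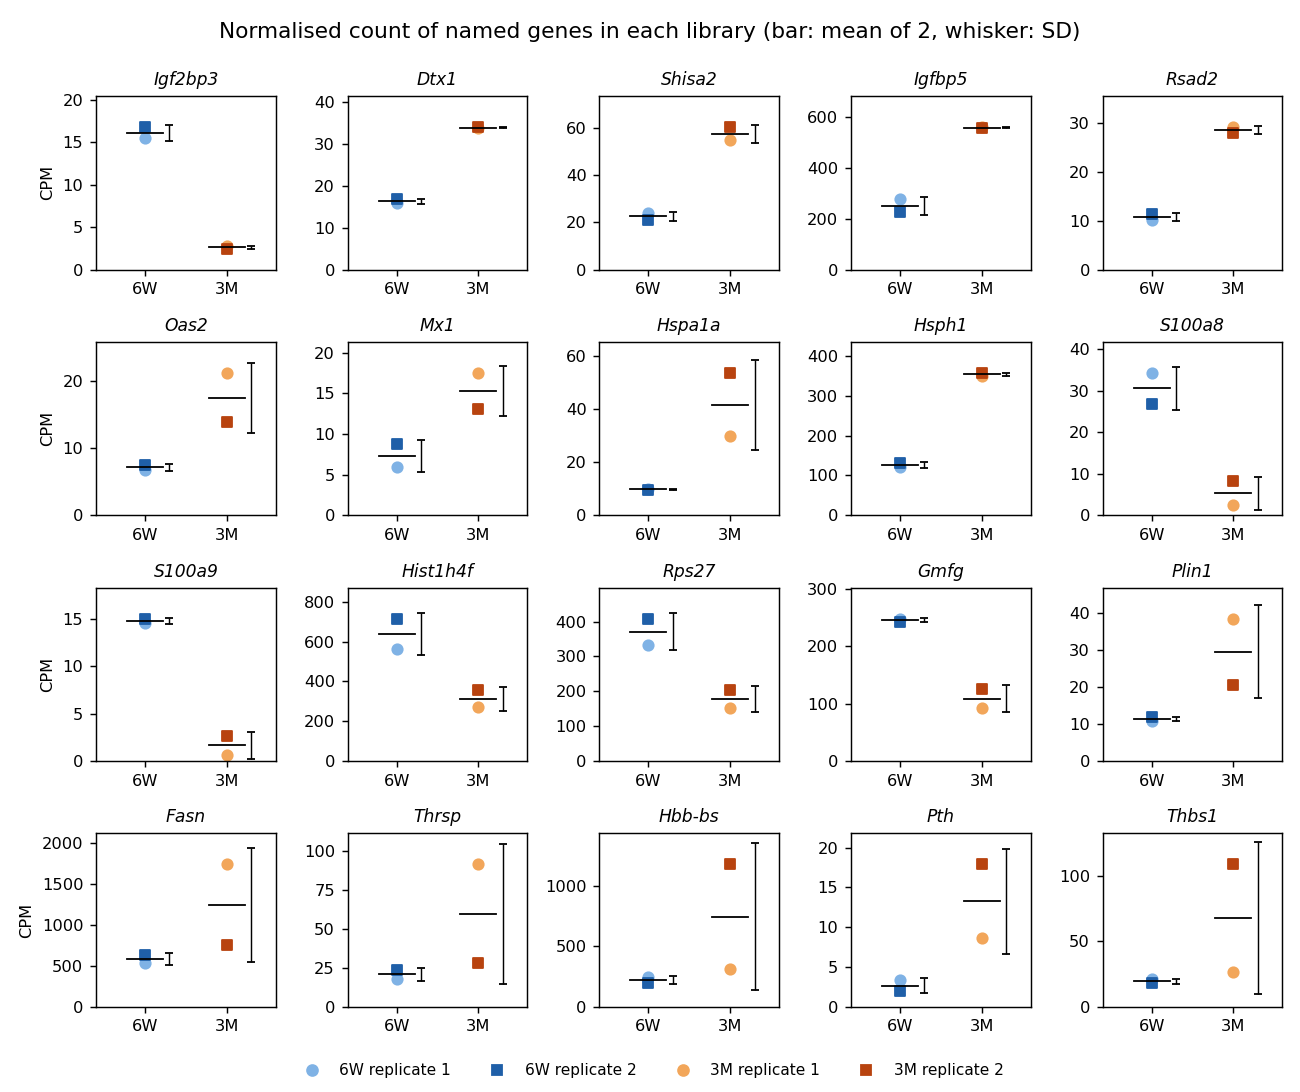
Normalised count (CPM, vertical axis from 0) of 20 genes in each library at 6W and 3M. Circles are replicate 1 and squares replicate 2, the bar is the mean of 2 libraries and the whisker the standard deviation. The pairs lie close together for Igf2bp3, Dtx1, Rsad2 and Hsph1, while 1 of the 3M libraries stands alone for Fasn, Thrsp, Hbb-bs and Thbs1.

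Of 10 heat shock genes, 3 rose, all in both libraries, against 1.29% of all genes tested. These genes encode chaperones that refold proteins and are switched on together by heat shock factors. Hsph1, a nucleotide exchange factor of the large Hsp110 class, was at 122 and 132 CPM at 6W and at 351 and 357 CPM at 3M. Hspa1a was at 9.98 and 9.53 CPM and then at 29.7 and 53.6 CPM, and Hspa1b at 19.1 and 19.9 CPM and then at 66.9 and 103 CPM. For all 3 genes both 3M libraries lay above both 6W libraries, and 3M replicate 2 was the highest for both Hspa1 genes. The log2 fold changes were 1.48 (standard error 0.22), 2.10 (0.27) and 2.13 (0.30), and all 3 genes stayed past the threshold whichever of the 4 libraries was left out. All 10 genes of the list had a positive log2 fold change, with a median of 0.68 against 0.02 over all genes tested, and 9 were higher without overlap, against 25.9% of all genes. Of the others, Bag3, a partner of Hsp70, was at 12.4 and 11.7 CPM and then at 23.5 and 23.7 CPM (log2 fold change 0.97), and Hspa8, the constitutive Hsp70, at 2514 and 3185 CPM and then at 3973 and 4326 CPM (0.54). None of the 13 immediate early genes, which respond to handling and stress within minutes, passed the threshold, and their median was 0.03.

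Hspa1a and Hspa1b are near copies, and how the reads were divided between them depends on the counting. Their promoter windows from RefSeq (GRCm38.p6, 250 bases before to 50 after the start of the gene) are identical at 296 of 300 positions. They are shown because these copies moved together and both hold the core of a heat shock element, GAANNTTC, which starts 104 bases before the gene in each. The capitals mark that match. The pattern with its open positions is the same on both strands. Hspa1a lies at chr17:34972107-34972406 and Hspa1b at chr17:34959189-34959488, both on the minus strand.
Hspa1a: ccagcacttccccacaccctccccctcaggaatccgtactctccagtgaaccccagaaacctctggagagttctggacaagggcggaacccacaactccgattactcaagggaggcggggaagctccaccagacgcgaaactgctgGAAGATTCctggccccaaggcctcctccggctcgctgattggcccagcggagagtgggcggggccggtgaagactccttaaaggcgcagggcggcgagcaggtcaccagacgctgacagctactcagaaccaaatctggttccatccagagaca
Hspa1b: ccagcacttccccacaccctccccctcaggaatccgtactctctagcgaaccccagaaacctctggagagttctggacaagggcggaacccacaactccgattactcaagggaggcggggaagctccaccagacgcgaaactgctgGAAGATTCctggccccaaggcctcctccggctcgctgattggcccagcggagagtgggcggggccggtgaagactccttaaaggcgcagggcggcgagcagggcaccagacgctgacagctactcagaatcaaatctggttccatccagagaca

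The same 8 letters occur in 7.86% of the 32851 promoter windows of the table. Of the heat shock list, 8 genes have a window there and 7 hold the letters in at least 1 window, against 9.04% of all genes of the table. These 7 are not separate matches. Hspa1a and Hspa1b are near copies, and the overlapping windows of Hspe1 and Hspd1 hold the same match. The matches of Hsph1 and Bag3 lie after the start of the gene. A match is a description of the letters and not evidence of binding.

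Of 20 interferon-stimulated genes, the antiviral programme that interferons induce in most cells, 3 rose and none fell, against 1.29% and 0.817% of all genes tested. Rsad2 (viperin), which blocks viral replication, was at 10.2 and 11.4 CPM at 6W and at 29.2 and 28.0 CPM at 3M. Oas2, a sensor of double-stranded RNA, was at 6.79 and 7.50 CPM and then at 21.1 and 13.8 CPM, and Mx1, an antiviral GTPase, at 5.91 and 8.74 CPM and then at 17.5 and 13.1 CPM. In all 3 genes both 3M libraries were above both 6W libraries, most evenly for Rsad2. The log2 fold changes were 1.40 (standard error 0.13), 1.28 (0.23) and 1.06 (0.24). Rsad2 passed the threshold whichever library was left out, Oas2 did not without 3M replicate 1 (0.96), and Mx1 did not without 6W replicate 1 (0.81) or 3M replicate 1 (0.85) and was at 0.11 when assembled transcripts were left out. Of the 20 genes, 18 had a positive log2 fold change. The median was 0.54 (0.37 without 3M replicate 1, 0.58 without 3M replicate 2), and 15 genes were higher without overlap, against 25.9% of all genes tested. Isg15, a ubiquitin-like modifier, overlapped between ages at 7.90, 12.4, 11.3 and 8.29 CPM. Cmpk2, a mitochondrial nucleotide kinase beside Rsad2 in the genome, was named after its values were seen and rose from 10.8 and 11.3 CPM to 26.1 and 18.5 CPM. It lost the call without 6W replicate 1 (0.98) and without 3M replicate 1 (0.75).

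The promoter window of Rsad2 is shown with the core of an interferon-stimulated response element in capitals, the letters GAAANNGAA on either strand. The match lies on the opposite strand and starts 119 bases before the gene. The window is chr12:26456403-26456702 on the minus strand (RefSeq, GRCm38.p6).
Rsad2: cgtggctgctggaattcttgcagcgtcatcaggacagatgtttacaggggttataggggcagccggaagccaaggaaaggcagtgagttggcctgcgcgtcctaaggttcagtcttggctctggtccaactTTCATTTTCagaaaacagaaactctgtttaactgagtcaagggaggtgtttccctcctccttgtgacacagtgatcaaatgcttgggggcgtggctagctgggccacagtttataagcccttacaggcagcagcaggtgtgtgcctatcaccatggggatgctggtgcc

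The letters occur in 8.56% of all windows. Windows were found for 13 genes of the interferon-stimulated list, of which 8 hold the letters, against 9.76% of all genes, and Oas2 and Mx1 are not among those with a window.

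Immunoglobulin genes and receptors of natural killer cells were among the weakly expressed genes that rose. These families were chosen after the called genes were seen. Of the tested heavy chain variable (Ighv) genes, 15 of 40 rose and none fell, against 1.29% and 0.817% of all genes tested, with a median log2 fold change of 1.41. Of the kappa variable (Igkv) genes 15 of 41 rose and none fell, with a median of 1.20. Both libraries carried 14 and 13 of these, while 3M replicate 1 moved Ighv1-66 and Igkv10-96 and 3M replicate 2 moved Igkv4-70. The summed Ighv level was 32.3 and 31.0 CPM at 6W and 92.4 and 73.2 CPM at 3M, and the summed Igkv level was 50.6 and 37.9 CPM and then 113 and 92.8 CPM. At 2W the Ighv sum was 5.88 and 2.58 CPM. Variable genes are short and alike, so that reads may be divided among neighbours, and the sums are steadier than single genes. Among the constant regions, which set the antibody class, Ighg2b went from 33.6 and 30.6 CPM to 149.9 and 96.0 CPM, and its log2 fold change was 1.94 (standard error 0.29). Ighg2c went from 6.40 and 8.52 CPM to 58.5 and 18.6 CPM, and Ighg3 from 1.70 and 2.65 CPM to 13.5 and 5.51 CPM. All 3 rose in both libraries, and 3M replicate 1 was the higher for each. Ighe, the IgE heavy chain, fell from 6.54 and 7.02 CPM to 1.62 and 3.76 CPM (-1.31, 0.46), and lost the call without either 6W library (-1.37 and -1.27) and without 3M replicate 1 (-0.84). Ighm, the IgM chain of all young B cells, was at 569 and 514 CPM and then at 642 and 609 CPM. None of the 14 tested genes of the B cell and plasma cell list passed the threshold, and their median was -0.03.

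Of 15 tested killer cell lectin-like receptor (Klr) genes, 6 rose and none fell, against 1.29% and 0.817% of all genes tested, with a median log2 fold change of 1.40. Klrk1 (NKG2D), an activating receptor of natural killer and cytotoxic T cells, was at 5.09 and 4.32 CPM at 6W and at 11.9 and 10.2 CPM at 3M. Klrc2 was at 0.872 and 0.838 CPM and then at 4.51 and 3.58 CPM. Both passed the threshold whichever of the 4 libraries was left out. Fasl, the death ligand of cytotoxic cells, rose as well, from 0.339 and 0.794 CPM to 3.67 and 1.88 CPM. On the list of regulatory, NKT and cytotoxic T cell genes, none of 14 passed the threshold, with a median of 0.24, and Gzma, a granzyme, was at 57.8 and 53.4 CPM and then at 80.3 and 69.0 CPM.

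Of 12 tested neutrophil genes, 7 fell and none rose, against 0.817% and 1.29% of all genes tested. S100a8 and S100a9, the paired calcium-binding proteins that fill the neutrophil cytoplasm, were the most abundant. S100a8 was at 34.2 and 26.8 CPM at 6W and at 2.47 and 8.15 CPM at 3M. S100a9 was at 14.6 and 15.0 CPM and then at 0.601 and 2.69 CPM. Both 3M libraries lay below both 6W libraries, and 3M replicate 1 was the lower for each. The log2 fold changes were -2.49 (standard error 0.50) and -3.12 (0.70), and both stayed past the threshold whichever library was left out. Camp (a cathelicidin), Ngp, Mpo (myeloperoxidase) and Ltf (lactoferrin), all of them granule proteins, fell in both libraries, and Lcn2 was moved by 3M replicate 1. Mpo and Ltf lost the call without 3M replicate 1 (-0.90 and -0.95) and without 6W replicate 1 (-1.19 and -1.50), and Ltf also without 6W replicate 2 (-1.70). Of the 12 genes, 6 are of 500 to 1000 nt in effective length and the part of length was not tested. The median of the list was -1.71, at -1.44 without 3M replicate 1 and -3.04 without 3M replicate 2. The summed level was 89.0 and 80.4 CPM at 6W and 12.4 and 29.5 CPM at 3M, and the 2W libraries were at 44.4 and 22.6 CPM. Csf3r, the receptor for the neutrophil growth factor, was an exception at 3.34, 3.66, 2.83 and 3.72 CPM.

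**Figure D3:**
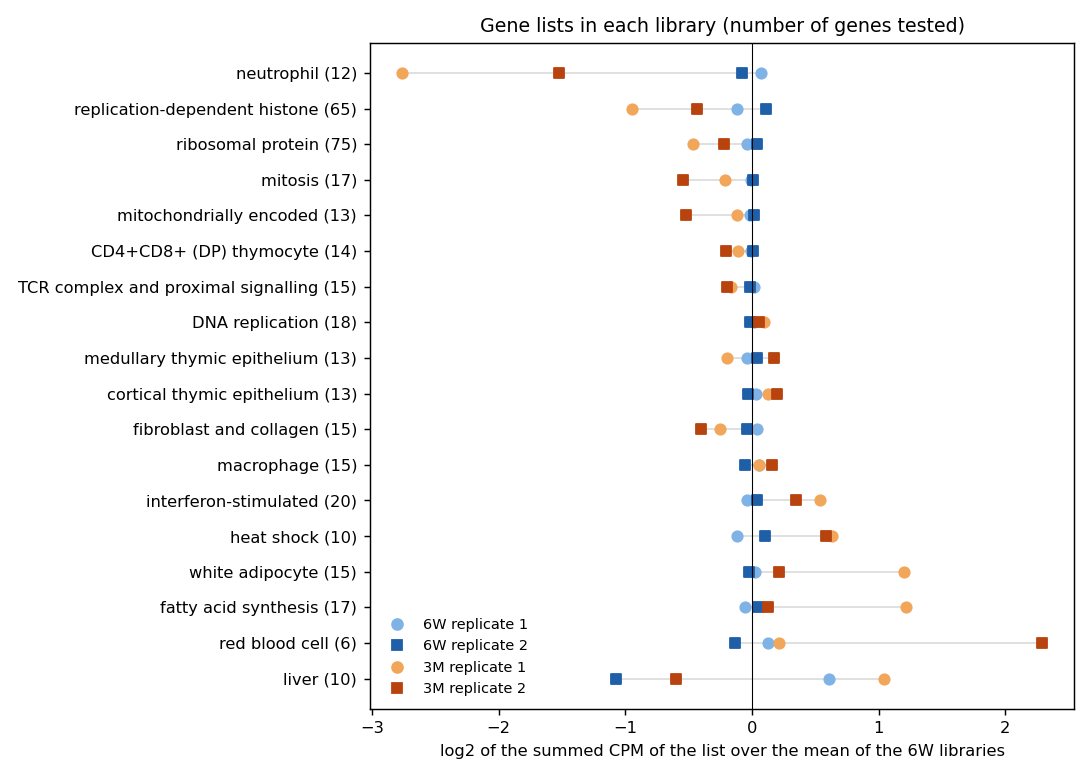
Summed CPM of 18 gene lists in each library, as log2 over the mean of the 6W libraries (horizontal axis). The number of genes tested is given in brackets, circles are replicate 1 and squares replicate 2. Neutrophil genes are low and interferon-stimulated and heat shock genes high in both 3M libraries, adipocyte and fatty acid synthesis genes are high in 3M replicate 1 and red blood cell genes in 3M replicate 2, and liver genes separate the replicate numbers.

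Of 65 tested genes of replication-dependent histones, 5 fell and none rose, against 0.817% and 1.29% of all genes tested. Replication-dependent histones package new DNA and have no poly(A) tail. The called histone gene with the smallest p was Hist3h2ba, at 82.6 and 106 CPM at 6W and 25.4 and 45.0 CPM at 3M. Hist1h4f was at 564 and 715 CPM and then at 271 and 356 CPM. For both genes the ages did not overlap, and 3M replicate 1 was the lowest library. The log2 fold changes were -1.42 (standard error 0.30) and -1.03 (0.26). Hist1h1e, Hist1h4c and Hist1h2bq fell too. Of the 5, Hist3h2ba alone stayed past the threshold without 3M replicate 1 and without 6W replicate 2. The median of the histone list was -0.66. Leaving out 3M replicate 1 gave -0.44, with 1 gene past the threshold, and leaving out 3M replicate 2 gave -0.99, with 32. Histone genes share near-identical copies, and single members are uncertain.

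Of 75 ribosomal protein genes, 3 fell and 1 rose, against 0.817% and 1.29% of all genes tested. The median was -0.40, and 61 genes were lower without overlap, against 23.3%. Rps27 fell from 334 and 408 CPM to 151 and 203 CPM (log2 fold change -1.07, standard error 0.26), and Rpl28 and Rpl36a fell by 1.06 and 1.03 on the log2 scale. Rpl5 rose from 248 and 133 CPM to 466 and 361 CPM, and lost the call under DESeq2 (1.10), without 6W replicate 2 (0.74), without 3M replicate 1 (0.93), without 3M replicate 2 (1.24) and without assembled transcripts (1.14). The other calls on this list were lost without 3M replicate 1 as well, at -0.86 for Rps27. Without 6W replicate 2 they were lost too, at -0.92 for Rps27, -0.85 for Rpl28 and -0.66 for Rpl36a. Of 78 nuclear genes of the respiratory chain, 1, Atp5j2, fell, against 0.817% of all genes, and the median was -0.25. Atp5j2 lost the call without 6W replicate 2 (-1.02) and without 3M replicate 1 (-1.19). Of these 78 genes, 52 are under 1000 nt.

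The fold change followed the length of the gene, taken as the effective length implied by the deposited counts and FPKM. The median log2 fold change was -0.29 for the 760 genes of 500 to 1000 nt, of which 39 fell and 10 rose. It was -0.08 from 1000 to 2000 nt, 0.02 from 2000 to 4000 nt and 0.11 from 4000 to 8000 nt. For the 650 genes over 8000 nt it was 0.21, and 1 of them fell and 9 rose. Over all genes tested, 0.817% fell and 1.29% rose. The numbers that rose lay near that share in both classes. Those that fell were above their share at 500 to 1000 nt and below it over 8000 nt. Both 3M libraries shared the slope of the medians, and it was steeper in 3M replicate 1 (-0.39 and 0.28 at these ends) than in 3M replicate 2 (-0.23 and 0.09). The median effective length was 612 nt for the histones and 729 nt for the ribosomal proteins, and the part of length in their difference was not tested. Below 500 nt, 81 of 133 genes were immunoglobulin variable genes, and without them the median was -0.56. The immunoglobulin variable genes, although short, were thus higher at 3M.

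**Figure D4:**
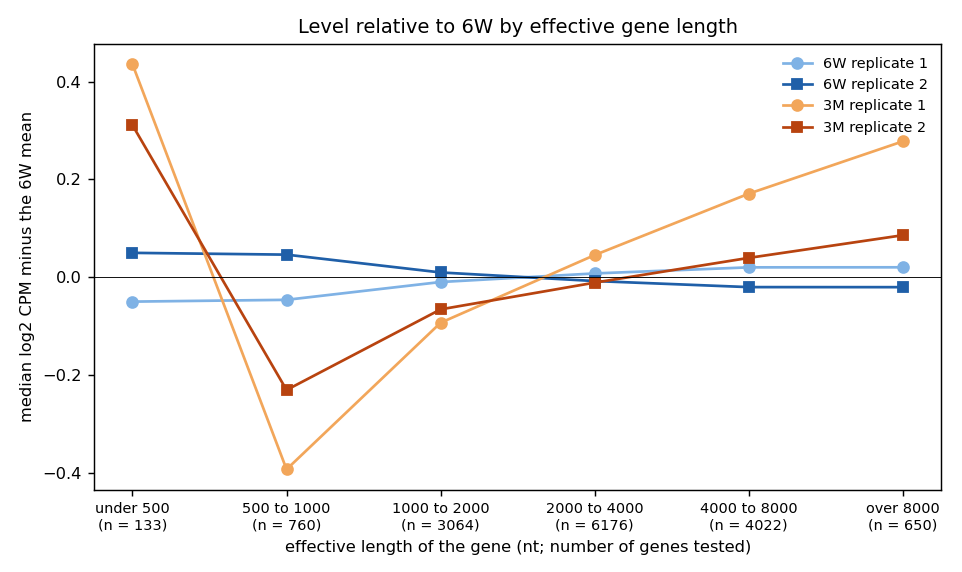
Median log2 CPM minus the mean of the 6W libraries (vertical axis) of the genes tested in 6 classes of effective length (horizontal axis, nt), 1 line per library. The 3M libraries run from -0.39 and -0.23 at 500 to 1000 nt to 0.28 and 0.09 over 8000 nt, while both 6W libraries stay within 0.05 of 0. The class under 500 nt is high and holds 81 immunoglobulin variable genes among its 133.

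Further genes fell in both libraries. Gmfg, an actin regulator of blood cells, was at 248 and 242 CPM at 6W and at 91.9 and 125 CPM at 3M. Dynlt1b, a dynein light chain, was at 116 and 114 CPM and then at 48.7 and 57.9 CPM. Their log2 fold changes were -1.18 (standard error 0.18) and -1.11 (0.15), and without 3M replicate 1 they were -0.96 and -0.98. Their effective lengths, 682 and 825 nt, and that of Insl5, 716 nt, lie in the class of 500 to 1000 nt. Dynlt1b has near copies in the table, of which Dynlt1f was at 28.9 and 27.7 CPM and then at 13.8 and 18.2 CPM, so that its own value is uncertain. Capn3, a calpain, fell from 39.1 and 30.4 CPM to 18.6 and 14.3 CPM. Padi4, an enzyme of neutrophils and blood progenitors that turns arginine into citrulline, fell from 10.7 and 12.2 CPM to 3.43 and 5.38 CPM, and Hemgn, a nuclear factor of blood progenitors, from 4.70 and 4.28 CPM to 1.92 and 2.06 CPM. Capn3 lost the call without 6W replicate 1 (-0.89) and without 3M replicate 2 (-0.95). The peptide hormone gene Insl5 fell from 3.68 and 4.02 CPM to 1.14 and 1.16 CPM, and Clca3b from 4.26 and 3.53 CPM to 0.962 and 0.627 CPM. Cetn3, a centrin of the centrosome, fell from 21.7 and 26.2 CPM to 12.7 and 9.90 CPM, and lost the call without 6W replicate 2 (-0.94) and without 3M replicate 2 (-0.97). The predicted genes Gm42742 and Gm9780 fell by 1.93 and 3.03 on the log2 scale. 4930432K21Rik had 37 counts in each 6W library, 0 in 3M replicate 1 and 1 in 3M replicate 2.

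No gene on the lists of DP thymocytes, mature thymocytes and the T cell receptor complex passed the threshold. Cd8a was at 1481 and 1553 CPM at 6W and at 1070 and 1142 CPM at 3M, and its log2 fold change was -0.46 (standard error 0.09). Cd4 was at 819 and 847 CPM and then at 611 and 694 CPM, and Satb1, a chromatin organiser of DP cells, overlapped between ages. Of 14 genes on the DP list, 10 were lower without overlap, against 23.3% of all genes tested, and the median was -0.21. The 15 genes of the T cell receptor complex had the same median, -0.21, with 11 lower without overlap, against 23.3% of all genes. Mki67, a marker of cycling cells, was at 1133 and 1242 CPM and then at 829 and 659 CPM (-0.67). All 17 mitosis genes had a negative log2 fold change, with a median of -0.31 and none past the threshold, whereas the median of the 18 DNA replication genes was 0.09. Median values were -0.06 for 11 genes of mature thymocytes and -0.38 for 13 mitochondrially encoded genes, and the latter moved to -0.80 on leaving out 3M replicate 1 and to -0.24 on leaving out 3M replicate 2.

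No gene on the lists of cortical and medullary epithelium passed the threshold. Ly75, an endocytic receptor of cortical epithelium and dendritic cells, was at 302 and 283 CPM at 6W and at 464 and 414 CPM at 3M. Prss16, the thymus-specific serine protease, was at 691 and 636 CPM and then at 838 and 894 CPM. Pax9, which patterns the thymic rudiment, had a log2 fold change of 0.65 (standard error 0.13). In these 3 genes both 3M libraries exceeded both 6W libraries, but Ly75 and Pax9 were named after their values were seen. Ctsl, which with Prss16 was the most abundant on the cortical list, overlapped between ages. It was at 893 and 820 CPM and then at 782 and 877 CPM. Of 13 cortical genes, 8 were higher and 3 lower without overlap, against 25.9% and 23.3% of all genes tested, and the median was 0.32. Foxn1, the master regulator of thymic epithelium, went the other way, at 16.2 and 21.8 CPM and then at 14.3 and 13.8 CPM. Aire, which drives the display of tissue antigens in the medulla, was at 7.32 and 8.69 CPM and then at 7.52 and 8.33 CPM. Of the 5 tested antigens known to depend on Aire, 4 were lower without overlap, against 23.3% of all genes, and none passed the threshold. Of these 5 genes, 3 are of 500 to 1000 nt, and the part of length was not tested. Reg3g was at 33.7 and 30.8 CPM and then at 15.3 and 18.7 CPM, a log2 fold change of -0.92. The median was -0.20 for the 13 medullary genes, which ranged from -0.81 to 0.66. On the list of mimetic epithelial cells, which imitate cells of other tissues, 1 of 12 genes passed the threshold, against 2.11% of all genes tested. It was the endocrine granule protein Chga, which 3M replicate 2 moved.

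In the stroma, Col3a1, a fibrillar collagen, was at 219 and 204 CPM at 6W and at 124 and 97.1 CPM at 3M. Its log2 fold change was -0.94 (standard error 0.15), which stayed inside the threshold. The 15 fibroblast and collagen genes had a median of -0.25, with 8 lower without overlap, against 23.3% of all genes tested. Of 12 elastic fibre genes, 1, Mfap4, fell, against 0.817% of all genes tested. Mfap4 went from 1.21 and 1.85 CPM to 0.421 and 0.672 CPM, and lost the call without 6W replicate 2 (-1.12) and without 3M replicate 1 (-1.18). None of the 14 endothelial, 9 smooth muscle and pericyte, 15 macrophage or 12 dendritic cell genes tested passed the threshold, and their medians lay between 0.04 and 0.12.

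Genes of fat tissue are where both classes meet. White adipocytes store triglyceride, and their lipid droplet protein Plin1 was at 11.0 and 11.8 CPM at 6W and at 38.5 and 20.6 CPM at 3M. Acsl1, which activates fatty acids, was at 45.2 and 41.6 CPM and then at 116 and 69.5 CPM. Agpat2, an enzyme of triglyceride synthesis, was at 2.86 and 3.75 CPM and then at 24.0 and 7.93 CPM. All 3 rose in both libraries, with 3M replicate 1 the higher, and their log2 fold changes were 1.37 (standard error 0.32), 1.09 (0.28) and 2.26 (0.52). Without 3M replicate 1 they were 0.87, 0.69 and 1.27, and only Agpat2 still passed. Slc2a4, the insulin-regulated glucose transporter, and Pck1, an enzyme of glyceride synthesis in fat, were named after their values were seen. Slc2a4 rose from 8.09 and 6.44 CPM to 22.4 and 12.2 CPM, and Pck1 from 45.6 and 36.3 CPM to 101 and 74.2 CPM. Both lost the call without 3M replicate 1 (0.76 and 0.87), and Pck1 also without 6W replicate 2 (0.94). Elovl3, an elongase of very long fatty acids in brown fat and skin, was even between the 3M libraries, with counts of 4 and 2 in the 6W libraries and of 35 and 48 in the 3M libraries (3.87, 0.54).

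Of 17 fatty acid synthesis genes, 6 rose, against 1.29% of all genes tested. Of these, 5 were moved by 3M replicate 1 and 1, Agpat2, was carried by both libraries. Fasn, the fatty acid synthase, was at 532 and 630.5 CPM at 6W and at 1733 and 753 CPM at 3M. Acaca, which makes its substrate malonyl-CoA, was at 192 and 196 CPM and then at 565 and 229.5 CPM. Thrsp, a regulator of lipogenesis, was at 17.5 and 23.8 CPM and then at 91.2 and 27.9 CPM. In each case 3M replicate 2 lay near the 6W libraries. The log2 fold changes of these 3 were 1.10 (standard error 0.37), 1.03 (0.37) and 1.52 (0.56), and 0.38, 0.25 and 0.44 without 3M replicate 1. Acacb and Pcx, and of the adipocyte list Cd36 and Retn, belonged to the same class. Scd1, which desaturates fatty acids, had the highest level of the group in 3M replicate 1, at 465, 470.4, 1803 and 429 CPM, and did not pass the threshold. Of 15 white adipocyte genes, 5 rose, against the same 1.29%, and 3 of them, Plin1, Acsl1 and Adig, were carried by both libraries. Adig, a small adipocyte protein, had counts of 10 and 19 in the 6W libraries and lost the call whichever of the 4 libraries was left out. The medians of the fatty acid synthesis and adipocyte lists were 0.88 and 0.90. They were 0.15 and 0.30 without 3M replicate 1 and 1.36 and 1.28 without 3M replicate 2. Of 11 brown adipocyte genes, 2 rose, Elovl3 and Otop1, both in both libraries, against 1.29% of all genes tested. Otop1 lost the call without 6W replicate 1 (1.45) and without 3M replicate 1 (1.05). Ucp1, the uncoupling protein, was at 15.3 and 27.9 CPM and then at 66.6 and 48.1 CPM, which did not pass the test. The 15 cholesterol synthesis genes had a median of 0.08 and no call.

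**Figure D5:**
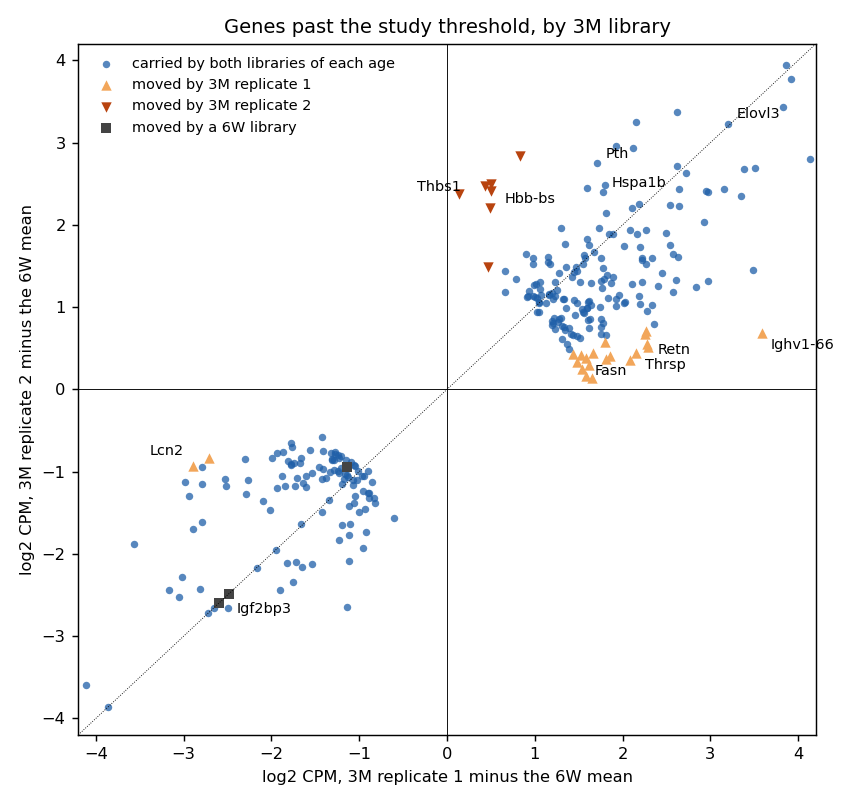
Genes past the study threshold, with the log2 CPM of 3M replicate 1 minus the 6W mean (horizontal axis) against that of 3M replicate 2 (vertical axis). The dotted line marks equal differences, colours and shapes give the class, and 6 genes lie outside the range. Fasn, Thrsp and Retn lie near the horizontal axis, Hbb-bs and Thbs1 near the vertical axis, and Igf2bp3 and Elovl3 on the dotted line.

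In 3M replicate 2, red blood cell genes stood alone. Hbb-bs, a beta globin, was at 246 and 197 CPM at 6W and at 313 and 1177 CPM at 3M. Hbb-bt was at 27.9 and 26.3 CPM and then at 29.9 and 141 CPM, and Alas2, the first enzyme of haem synthesis in erythroid cells, at 7.46 and 4.99 CPM and then at 8.66 and 34.9 CPM. In all 3 genes 3M replicate 1 lay close to the 6W libraries. All 6 tested genes of the list stood more than 1 log2 unit above the other 3 libraries in 3M replicate 2. Their median log2 fold change was 1.71, and -0.06 without 3M replicate 2. Thbs1, an adhesive protein of platelets and stroma, was at 20.8, 18.2, 26.3 and 108 CPM. Chga was at 5.38, 4.85, 7.22 and 24.0 CPM. The parathyroid hormone gene Pth rose in both libraries, from 3.30 and 1.99 CPM to 8.60 and 17.9 CPM (2.33, standard error 0.47), while Casr, the calcium receptor of that gland, was at 5.86, 4.37, 5.47 and 6.81 CPM.

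The largest changes among the genes moved by 1 library were mostly in genes of few counts. The counts of Ighv1-66 were 5 and 8 in the 6W libraries and 78 and 12 in the 3M libraries, and those of Igkv4-70 were 10 and 10 and then 15 and 88. Serpinb13, a protease inhibitor of keratinised epithelium, had 16 and 11 counts and then 56 and 24. Ceacam3 held 33 and 3 counts in the 6W libraries and none in either 3M library. Against a floor of 3 counts per library the 6W mean gives a level at least 4.80-fold lower at 3M, which rests on 6W replicate 1. Replicate 2 is itself at the floor and gives no bound. Of the genes lowered by 3M replicate 1, Lcn2 was at 4.31, 5.12, 0.541 and 2.42 CPM and Cd177, a neutrophil surface protein, at 3.59, 3.13, 0.421 and 1.84 CPM. The sign for Cd177 turned when assembled transcripts were left out (0.12).

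Some calls depended on gene names. Assembled transcripts in the table carry older or human symbols, and 23 of the 312 genes share an identity with another symbol of the table by the synonyms of RefSeq. Ankrd32 is the older symbol of Slf1, a factor of DNA repair. Under Ankrd32 the level rose from 1.94 and 1.06 CPM to 13.7 and 8.24 CPM, and under Slf1 it was at 22.3 and 18.1 CPM and then at 17.4 and 6.85 CPM. The joined gene had a log2 fold change of 0.08. Ppp2r4, with 72 counts in 6W replicate 2 and 0 in the other 3 libraries, is an older symbol of Ptpa, and the joined gene was at -0.13. Cenpc1, called through 6W replicate 1, was at -0.37 when joined with Cenpc. In all, 16 genes lost the call on joining. Among them were Ankrd32, Fcn1, Tp53i13 and Znf710, which had stayed past the threshold whichever library of 6W or 3M was left out. With older symbols joined throughout, which was chosen after seeing the data, 334 genes passed the threshold, 295 of them in common with the 312.

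Liver genes separated the replicate numbers and not the ages. Alb, the serum albumin, was at 123 and 0.838 CPM in 6W replicates 1 and 2, at 182 and 2.02 CPM in 3M replicates 1 and 2, and at 152 and 134 CPM at 2W. None of the 10 liver genes passed the threshold, and their median log2 fold change was 0.41. Leaving out 3M replicate 1 gave -4.15 and leaving out 3M replicate 2 gave 1.23.

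Of 2 further genes named by the study, Celf1, a splicing regulator, was at 315 and 323 CPM at 6W and at 429 and 363 CPM at 3M (log2 fold change 0.31, standard error 0.12). Erap1, the aminopeptidase that trims antigenic peptides, was at 147 and 138 CPM and then at 191 and 147 CPM (0.24, 0.17). Neither passed the threshold, and for Celf1 the ages did not overlap. The study describes Erap1 as down-regulated at 3 months. Its calls were made with DESeq, whereas the values here are sums per gene symbol fitted in edgeR.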

How the data were processed

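Long RNA of whole thymus was depleted of ribosomal RNA by the authors, made into strand-specific libraries and sequenced. The authors deposited estimated counts and FPKM per transcript (77525 transcripts, of which 10976 are assembled). Of the deposited counts, 84.1% are not whole. The tools and the build behind this table are not given in the sources used here. The submitters' processing notes name Bowtie 0.12.2 and mm8 with no role. Counts were summed by symbol, joining symbols that differ in case (22843 genes, 665 of which joined case variants), and rounded. At most 1.20% of a library's counts had no symbol. The 6 libraries were fitted together in edgeR 4.0.16 (R 4.3.3) with TMM, filterByExpr by age and age as the only term. Adjusted p-values follow Benjamini and Hochberg over 14805 genes, and standard errors were derived from the F statistic. The fit was tested on simulated data. DESeq2 1.42.0 was an alternative. Where the labels do not tie libraries to animals, p-values and standard errors measure the spread between these libraries, while the floor of 3 counts covers counting error only.

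The members, the 40 gene lists and the rules for named genes were chosen with earlier results of these data known. Named are, by p, the first 12 higher and the first 12 lower genes carried by both libraries, the 5 of each direction with the largest change among those moved by 1 library, the called and most abundant genes of the lists, Igf2bp3 and 2 genes of the study. Any other gene was chosen after its values were seen. On 24 lists no gene passed the threshold, with medians from -0.92 to 0.41. Effective length is the sum of counts over the counts per base that FPKM implies. Promoters come from RefSeq (GRCm38.p6). The tables of the other RNA classes were not used.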

Additional observations from a re-analysis of the deposited data

How the results depend on the processing

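The number of genes past the study threshold (312) was 219 to 668 when 1 library was left out, with 668 without 3M replicate 2 (222 shared with the 312) and 347 without 3M replicate 1 (147 shared). Leaving out a library of a compared age leaves 1 at that age, which is then assumed to vary like the others. It was 268 with DESeq2, 321 with its size factors, 319 with total counts, 341 with the 4 libraries alone, 339 with symbols kept apart by case and 326 without assembled transcripts (206 shared), and 455 of 19335 genes with no filter. Of the 281 genes carried by both libraries, 85 stayed past the threshold whichever of the 4 libraries was left out, and of the 31 others 0 did. The number with an adjusted p under 0.05 (1) was 352 with DESeq2, 19 with no filter, 0 with the 4 libraries alone, 0 with symbols kept apart by case, 0 without assembled transcripts, and 0 to 11 with 1 library left out. With a replicate block, 310 genes passed the threshold and 0 had an adjusted p under 0.05. The deviations of same-numbered libraries correlated at 0.353 for 6W and 3M, -0.058 for 2W and 6W and -0.178 for 2W and 3M, so that the numbers were not taken as pairs. The direction turned for Scn1a (-0.44) and Cd177 (0.12) without assembled transcripts, and the fitted log2 fold change of Ppp2r4, which rests on 1 library with counts and is no bound, was -8.90 without 6W replicate 1 and 0 without 6W replicate 2. The cause was not tested.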

Other observations

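No gene on the lists of antigen presentation, chemokines, glucocorticoid targets, clock genes and senescence passed the threshold. The lists do not hold every gene of these classes. The 16 genes of antigen presentation had a median log2 fold change of 0.15, and H2-K1, a class I molecule, was at 570.5 and 583 CPM at 6W and at 673 and 731 CPM at 3M. The 16 chemokines of the list had a median of -0.02, and Cxcl12, which holds progenitors in the cortex, was at 178 and 159.6 CPM and then at 260.4 and 213 CPM. The 10 glucocorticoid targets had a median of 0.16, the 15 clock genes 0.20 and the 9 tested genes of cell cycle arrest and senescence -0.01. Of 8 tested skeletal muscle genes, 1, Myl1, rose, against 1.29% of all genes tested. Myl1 went from counts of 12 and 6 to counts of 23 and 19, and lost the call whichever of the 4 libraries was left out.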
